A study of Mus musculus with 9 samples.

Results

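The genes described here are those of the kinetochore and the spindle assembly checkpoint, 48 of the 55492 rows of the deposited table. They were taken by symbol: 20 rows named Cenp followed by 1 letter from a to x, and 28 further genes from a list, of which every one was found. Cenpc1 and Itgb3bp, the mouse genes of CENP-C and CENP-R, do not match that pattern and are given among the partner genes.

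Poly(A) RNA was sequenced in 9 libraries from D2.0R (D2.OR in another label), an established line of mouse breast adenocarcinoma cells. CellTrace Far Red (CTFR), a dye that each division dilutes, was put on the cells, which then spent one week in DMEM with 2% FBS and glutamax before they were sorted. The sorted kinds named in the labels are dye-retaining cells, taken as quiescent, and dye-poor cells, taken as proliferating, besides bulk cells. The labels tie none of the 9 libraries to a kind, so each library is called by the running number in its title, none is read as quiescent or proliferating, and no comparison of sorted fractions was made. The labels name no separate cultures or sort days for single libraries.

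The kinetochore is the protein assembly that forms on the centromere of each chromosome and grips the microtubules of the mitotic spindle. Its inner layer sits on nucleosomes that hold the histone H3 variant CENP-A, its outer layer binds microtubules, and checkpoint proteins gather on kinetochores without microtubules and hold the cell before anaphase. Many of these genes are transcribed mainly in late S phase, G2 and mitosis and are kept low in resting cells by the DREAM repressor complex. Their RNA is therefore commonly used as a sign of dividing cells.

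The libraries held 18732737 to 41243036 estimated counts. Levels are given as CPM, the usual unit of counts scaled to library size, in which the floor of 3 counts corresponded to 0.0742 in library 7 and 0.164 in library 9. Of 6 mammary epithelial markers Krt8, Krt18 and Cdh1 passed the filter on low counts, whereas Krt5, Krt14 and Epcam did not exceed 1.31 CPM in any library. Krt8 had 662 CPM in library 8 against 146 CPM in library 3, and Cdh1 13.03 CPM in library 8 against 5.46 CPM in library 6. Krt18 went another way, with 156 CPM in library 1 against 38.01 CPM in library 9, and was not highest in the middle of each run of 3 titles. Of 4 leukocyte and NK cell markers, Ncr1 and Klrk1 had 0 counts in all libraries, Ptprc reached at most 0.109 CPM, and Cd68 stood at 8.32, 4.60, 6.40, 9.003, 2.74, 7.30, 10.95, 2.76 and 6.56 CPM in libraries 1 to 9. Cd68, a lysosomal protein gene of macrophages, was thus lowest in libraries 2, 5 and 8, and the part of these markers in the results below was not tested. Both endothelial markers, Pecam1 and Cdh5, fell below the filter. In libraries made from many cells, fewer cells that express a gene and less of its RNA per cell cannot be told apart.

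Kinetochore and checkpoint genes differed widely between libraries. A gene is called variable here when its 9 counts spread beyond counting noise (adjusted p under 0.05 in a chi-square dispersion test, Benjamini-Hochberg over 12813 genes) and its highest and lowest library differed at least 2-fold. Of the 48 genes, 40 passed the filter on low counts, which asks for about 10 counts in every library, and 31 of these 40 were variable, against 28.0% of all genes tested. The other 8 (Cenpm, Spc24, Ndc80, Ska1, Oip5, Nsl1, Cenpp and Cenpk) fell below the filter in their lowest libraries, and without a filter all 8 were variable, which brought the count to 39 of 48 against 23.7% of genes. The median range between highest and lowest library was 2.06 on the log2 scale (4.16-fold) over the 40 genes and 0.69 (1.61-fold) over all genes tested. Without a filter the median range was 2.74 on the log2 scale over the 48 genes and 0.92 over all 27105 genes tested.

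**Figure D1:**
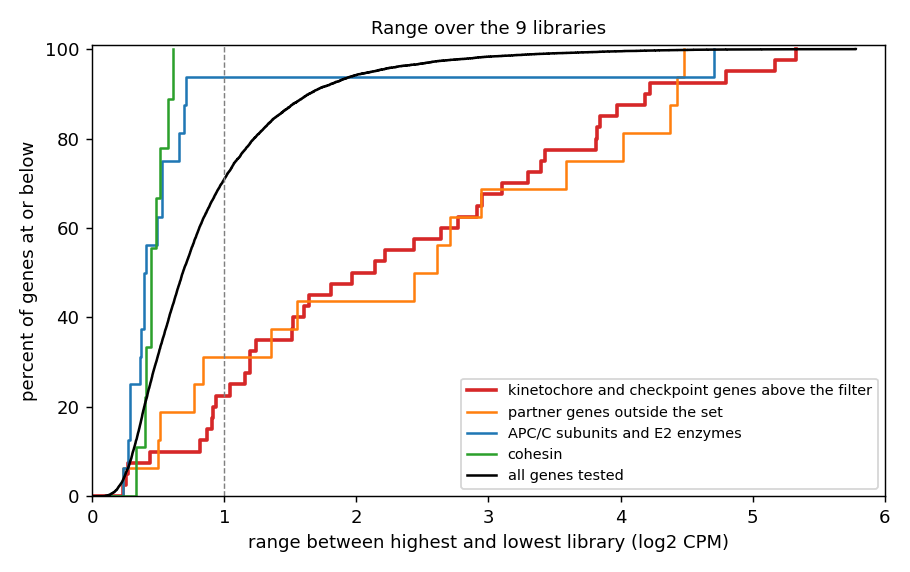
Cumulative share of genes (vertical axis, percent) at or below a given range between the highest and lowest of the 9 libraries (horizontal axis, log2 CPM), for the 40 kinetochore and checkpoint genes above the filter, 3 lists of related genes and all 12813 genes tested; the dashed line marks 2-fold. The median range is 2.06 for the kinetochore and checkpoint genes and 0.69 for all genes tested, and the cohesin curve ends at 0.61.

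The genes shared an order over the libraries. Library 8 was the highest in 39 of the 48 genes (31 of the 40 tested, against 17.1% of all genes tested), and libraries 2, 5 and 8 were the 3 highest in 39 (31 of 40 tested, against 19.0%). In 35 of 48 the 3 highest libraries were 8, 5 and 2 in that order (27 of 40 tested, against 7.02%). Library 1 was the lowest in 17 genes and library 3 in 14, which among the tested ones made 16 and 11 of 40, against 11.4% and 6.59% of all genes. With library 8 set aside, library 5 was the highest in 42 of 48 (34 of 40 tested, against 16.2% of all genes tested). As a list score, each gene's log2 CPM was centred on its median across libraries and the median taken over the 48 genes. This score was 1.52 in library 8 and -0.72 in library 3, which is 4.71-fold apart.

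By title number, the middle library of each run of 3 (library 2 among 1 to 3, 5 among 4 to 6, 8 among 7 to 9) exceeded both its neighbours in 44 of the 48 genes. Among the tested ones this held for 36 of 40, against 28.6% of all genes tested. A margin of at least 1.5-fold over both neighbours in all 3 runs was seen in 34 of 48, or 26 of 40 tested against 5.93%. Over the 48 genes, library 2 stood a median 2.60-fold above the higher of its neighbours, library 5 3.44-fold and library 8 2.33-fold. For all genes tested the median ratios to the higher neighbour were 0.94, 0.93 and 0.92. These medians are not of like sets, since the 48 include the 8 genes below the filter and the genes tested leave such genes out. The exceptions were Bub3, Cenpb, Zw10 and Cenpv, which was the single gene lowest in the middle library of every run (1 of 40 tested, against 29.5%).

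Libraries at the same place in successive runs differed as well. A steady increase over the runs at all 3 places (1 to 4 to 7, 2 to 5 to 8, and 3 to 6 to 9) was seen in 18 of 48 genes, or 16 of 40 tested against 13.5% of all genes tested. Library 8 was above library 5 in 42 genes, by a median of 1.3-fold over the 48, and library 5 above library 2 in 43, by 1.34-fold. Library 7 was above library 1 in 46 genes, by a median of 1.80-fold, and library 9 above library 3 in 42, by 1.64-fold. For all genes tested each of these medians lay between 1.00 and 1.01. The share of all genes higher in the same library of each pair was not counted, and the 48 include the 8 genes below the filter. Libraries 1 and 3, the outer ones of the first run, were closer to each other: library 1 was the higher in 22 genes of 48, at a median ratio of 0.99.

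**Figure D2:**
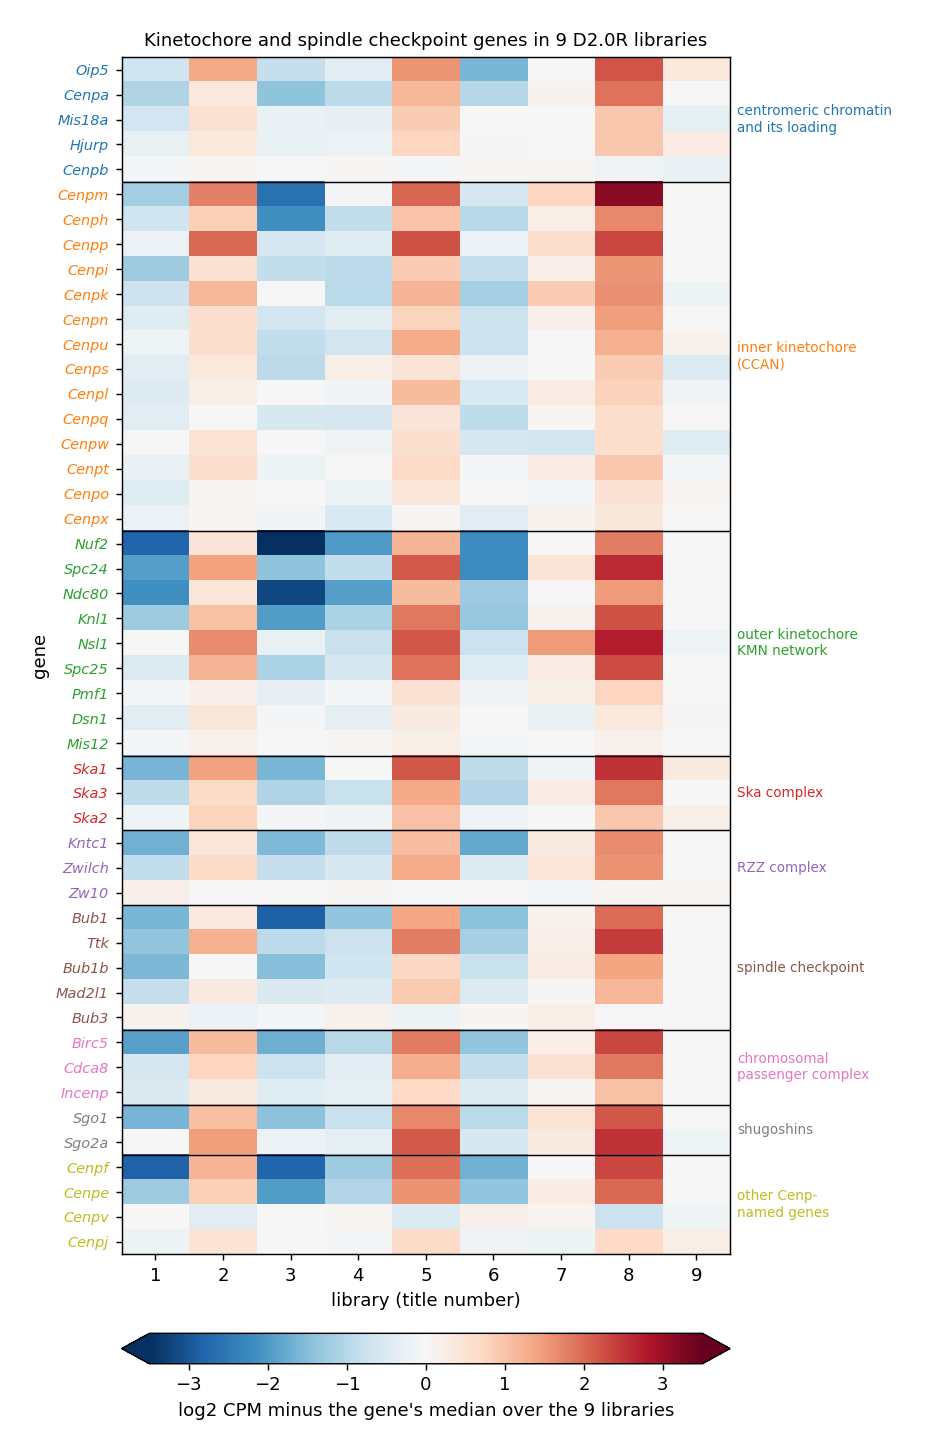
Log2 CPM of each of the 48 genes (rows, grouped by role) in each library (columns, by title number), shown relative to the row's median; red is above and blue below that median, and the colour scale ends at 3.5 either way. Columns 2, 5 and 8 are red in most rows and columns 1, 3, 4 and 6 blue, and the rows of Cenpb, Mis12, Zw10 and Bub3 are nearly white.

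The promoters of the genes were read for 3 short motifs on both strands, in the 250 bases before each RefSeq start (build GRCm38.p6, 43 of the 48 genes matched by symbol, all but Zwilch, Ska1, Incenp, Spc24 and Nsl1). The CCAAT box, bound by NF-Y and read as ATTGG on the other strand, was found in 23 of the 43 genes (53.5%), against 37.5% of 27025 genes with a promoter and 41.1% of the tested ones. The cell cycle genes homology region, TTTGAA, was found in 8 (18.6%), against 18.3% and 12.6%. An E2F-like motif, either TTCCCGC or TTGGCGC (the second can share letters with a CCAAT box), was found in 7 (16.3%), against 6.45% and 12.1%. Of the 16 matched genes with a range of at least 3 on the log2 scale, 10 held a CCAAT box, 1 the TTTGAA element (Kntc1) and 1 an E2F-like motif (Cenpm). Of the 9 with a range under 1, 3 held a CCAAT box, 2 the TTTGAA element and 3 an E2F-like motif. A match describes letters only, and a window without one says nothing of the factor.

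The last 150 bases before the start are shown for the 4 tested genes of widest range with a promoter in the reference, and for the 2 of narrowest range, 5′ to 3′ on the gene's strand, with motif matches in capitals.
Nuf2 (chr1:169531465-169531614, - strand): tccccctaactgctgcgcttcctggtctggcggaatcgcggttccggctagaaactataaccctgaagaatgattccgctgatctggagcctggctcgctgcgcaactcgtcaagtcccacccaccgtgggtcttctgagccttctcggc
Cenpf (chr1:189688087-189688236, - strand): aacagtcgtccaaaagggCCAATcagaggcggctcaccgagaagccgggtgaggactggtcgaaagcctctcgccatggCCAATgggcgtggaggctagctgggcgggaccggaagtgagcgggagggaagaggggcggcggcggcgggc
Bub1 (chr2:127831860-127832009, - strand): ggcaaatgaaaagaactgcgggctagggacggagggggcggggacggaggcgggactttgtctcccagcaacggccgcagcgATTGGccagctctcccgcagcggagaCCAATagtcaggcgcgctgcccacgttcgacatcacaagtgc
Birc5 (chr11:117849087-117849236, + strand): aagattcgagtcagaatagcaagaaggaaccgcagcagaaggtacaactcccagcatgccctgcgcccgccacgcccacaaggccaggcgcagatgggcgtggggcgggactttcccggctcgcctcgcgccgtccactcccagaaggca
Mis12 (chr11:71019461-71019610, + strand): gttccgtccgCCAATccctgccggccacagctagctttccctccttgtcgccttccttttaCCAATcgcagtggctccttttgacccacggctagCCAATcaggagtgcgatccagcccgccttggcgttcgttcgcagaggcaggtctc
Zw10 (chr9:49055431-49055580, + strand): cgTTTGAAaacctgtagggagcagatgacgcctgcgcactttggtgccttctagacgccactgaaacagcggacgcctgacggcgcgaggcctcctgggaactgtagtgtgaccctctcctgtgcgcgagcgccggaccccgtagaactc

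Cenpf held CCAAT 132 and 71 bases before its start, and Bub1 held ATTGG 68 and CCAAT 42 bases before it. Nuf2 and Birc5 held none of the 3 motifs in these 150 bases. The level gene Mis12 held CCAAT 3 times, at 140, 89 and 55 bases, and Zw10 held TTTGAA at 148 bases. In the windows shown, the CCAAT box was thus found in Cenpf and Bub1 of the wide genes and in Mis12 of the narrow ones. Over the same 150 bases, 9 of the 16 matched genes with a range of at least 3 held it. Of the 9 with a range under 1, 3 did. In this window the share was 27.7% of all genes with a promoter and 32.6% of the tested ones. A link between motif and range was not tested.

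In the outer kinetochore, the highest and lowest library differed by 11.2-fold to 47.5-fold in the 4 genes of the Ndc80 complex, the rod that binds the microtubule, and by 1.20-fold to 13.8-fold in the 4 of its anchor, the Mis12 complex. Nuf2 (ENSMUSG00000026683, chromosome 1 at 169497934 to 169531464, minus strand) had no motif in the window shown and stood at 0.627, 6.31 and 0.340 CPM in libraries 1 to 3, then 1.12, 10.6 and 0.951 CPM in libraries 4 to 6 and 4.62, 16.1 and 4.70 CPM in libraries 7 to 9. It was highest in libraries 8, 5 and 2 and lowest in 3 and 1, and the extremes differed 47.5-fold (95% interval 26.98 to 92.4). Its range was 5.33 on the log2 scale and 4.55 without library 3. Ndc80 (chromosome 17 at 71496100 to 71526857, minus strand), which pairs with Nuf2, had 8.08 CPM in library 8 against 0.255 CPM in library 3 (31.7-fold, 95% interval 16.5 to 70.03) on 9 counts in that last library, a range of 4.68 on the log2 scale and 3.63 without library 3. At the other end of the rod, Spc24 had 8.70 CPM in library 8 against 0.245 CPM in library 6 (35.5-fold, 95% interval 17.8 to 82.9). Spc24 had 8 counts in library 6. Its partner Spc25 had 9.53 CPM in library 8 against 0.849 CPM in library 3 (11.2-fold, 95% interval 7.72 to 16.9). All 4 subunits had libraries 8, 5 and 2 as their 3 highest, in that order.

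Knl1, the scaffold on which the Bub proteins assemble (chromosome 2 at 119047119 to 119105501, plus strand), stood at 1.88, 9.24 and 1.13 CPM in libraries 1 to 3, then 2.08, 16.6 and 1.78 CPM in libraries 4 to 6 and 4.92, 21.7 and 4.54 CPM in libraries 7 to 9. Its extremes differed 19.2-fold (95% interval 13.96 to 27.1), and its range was 4.19 on the log2 scale and 3.56 without library 3. The Mis12 complex was uneven. Nsl1 ranged 13.8-fold (95% interval 7.10 to 30.8), at 4.11 CPM in library 8 against 0.297 CPM in library 4 on 9 counts in library 4. Pmf1 ranged 2.07-fold (95% interval 1.78 to 2.41) and was no longer variable without library 3 or library 8 (0.87 and 0.78 on the log2 scale). Dsn1, at 13.5 CPM in library 2 against 7.63 CPM in library 1, ranged 1.77-fold and was not variable. Mis12 (chromosome 11 at 71019611 to 71027371, plus strand), with 3 CCAAT boxes, stood at 40.998, 46.5 and 41.03 CPM in libraries 1 to 3, then 42.6, 48.3 and 40.4 CPM in libraries 4 to 6 and 41.7, 46.1 and 41.8 CPM in libraries 7 to 9. All 9 values of Mis12 lay within 1.197-fold (95% interval 1.11 to 1.29) of one another, beyond counting noise (adjusted p 6.7e-08 by the chi-square test over all genes) but far under 2-fold. In the Ska complex, which strengthens the hold of the Ndc80 rod on microtubules, Ska1 had 3.56 CPM in library 8 against 0.139 CPM in library 1 (25.5-fold, 95% interval 9.74 to 95.1), on 4 counts in its lowest library. Ska3 had 8.29 CPM in library 8 against 1.05 CPM in library 3 (7.92-fold, 95% interval 5.62 to 11.5). Ska2 moved less, with 19.9 CPM in library 5 against 8.88 CPM in library 1 (2.24-fold, 95% interval 1.93 to 2.61).

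Of the 5 checkpoint genes, 4 were variable and highest in library 8, and Bub3 was the exception. Bub1 (chromosome 2 at 127801122 to 127831865, minus strand), a kinase that marks centromeric chromatin and recruits other checkpoint proteins, stood at 1.57, 6.22 and 0.623 CPM in libraries 1 to 3, then 1.81, 12.4 and 1.75 CPM in libraries 4 to 6 and 5.34, 19.1 and 4.87 CPM in libraries 7 to 9. The highest and lowest library differed 30.6-fold (95% interval 20.1 to 49.2), a range of 4.80 on the log2 scale and 3.55 without library 3. Ttk, the MPS1 kinase that starts checkpoint signalling, had 10.7 CPM in library 8, a median of 1.91 CPM and 0.697 CPM in library 1 (15.4-fold, 95% interval 9.81 to 25.4), and its range was 3.83 on the log2 scale and 3.17 without library 8. Bub1b (chromosome 2 at 118598211 to 118641591, plus strand), which encodes BubR1 of the mitotic checkpoint complex, stood at 3.83, 11.6 and 4.08 CPM in libraries 1 to 3, then 7.12, 19.2 and 6.69 CPM in libraries 4 to 6 and 14.1, 30.002 and 11.5 CPM in libraries 7 to 9. In this gene library 7 exceeded library 2, so that the 3 highest were 8, 5 and 7. Its extremes differed 7.83-fold (95% interval 6.43 to 9.61), and its range was 2.95 on the log2 scale and 2.31 without library 8. Mad2l1, the gene of MAD2, which binds CDC20 in the same complex, had 21.2 CPM in library 8, a median of 9.46 CPM and 5.36 CPM in library 1 (3.95-fold, 95% interval 3.32 to 4.73). Bub3 (chromosome 7 at 131560222 to 131571895, plus strand), the WD-repeat partner of Bub1 and BubR1, stood at 77.8, 62.1 and 67.2 CPM in libraries 1 to 3, then 79.3, 63.04 and 75.1 CPM in libraries 4 to 6 and 84.1, 70.95 and 70.7 CPM in libraries 7 to 9. It was lowest in libraries 2 and 5 and highest in library 7, but over only 1.35-fold (95% interval 1.28 to 1.43), and was not variable.

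The RZZ complex, which brings dynein and the MAD1 and MAD2 proteins to the kinetochore, showed the same unevenness. Kntc1, the gene of ROD, had 14.8 CPM in library 8, a median of 4.70 CPM and 1.32 CPM in library 6 (11.2-fold, 95% interval 8.24 to 15.7). Zwilch had 12.2 CPM in library 8, a median of 4.05 CPM and 2.19 CPM in library 1 (5.54-fold, 95% interval 4.25 to 7.33). Zw10 (chromosome 9 at 49055613 to 49078775, plus strand), which also takes part in vesicle transport between the endoplasmic reticulum and the Golgi, stood at 21.1, 18.5 and 18.6 CPM in libraries 1 to 3, then 18.9, 18.3 and 18.3 CPM in libraries 4 to 6 and 17.9, 19.4 and 19.96 CPM in libraries 7 to 9. These 9 counts did not differ beyond counting noise (adjusted p 0.135 by the chi-square test over all genes, 1.18-fold, 95% interval 1.06 to 1.32 between extremes), the single case among the 40 tested genes. Of all genes tested, 94.1% passed that test. The interval of Zw10 excludes 1, but it does not allow for picking the highest and lowest of 9 libraries.

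In the chromosomal passenger complex, which corrects faulty attachments and carries the Aurora B kinase, all 3 genes were variable. Birc5 (chromosome 11 at 117849251 to 117855743, plus strand), the gene of survivin, stood at 1.22, 10.3 and 1.39 CPM in libraries 1 to 3, then 2.37, 16.8 and 1.78 CPM in libraries 4 to 6 and 5.56, 23.8 and 4.70 CPM in libraries 7 to 9. Libraries 8, 5 and 2 were the highest and library 1 the lowest, 19.6-fold (95% interval 13.95 to 28.3) apart. Cdca8, the gene of borealin, had 14.7 CPM in library 8 against 2.301 CPM in library 6 (6.39-fold, 95% interval 5.01 to 8.25). Incenp, the scaffold of the complex, ranged least of the 3, with 55.5 CPM in library 8, a median of 27.5 CPM and 19.4 CPM in library 1 (2.86-fold, 95% interval 2.61 to 3.15). The shugoshin genes, whose products guard centromeric cohesion, were both variable. Sgo1 had 7.69 CPM in library 8 against 0.488 CPM in library 1 (15.8-fold, 95% interval 9.25 to 29.2). Sgo2a had 16.3 CPM in library 8 against 1.84 CPM in library 6 (8.85-fold, 95% interval 6.78 to 11.7). Sgo2a shares 35.04% of its exon length with Kctd18 on the other strand, and the strand setting of the counting was not stated. Kctd18 itself had 13.5 CPM in library 8 and 11.5 in library 3.

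**Figure D3:**
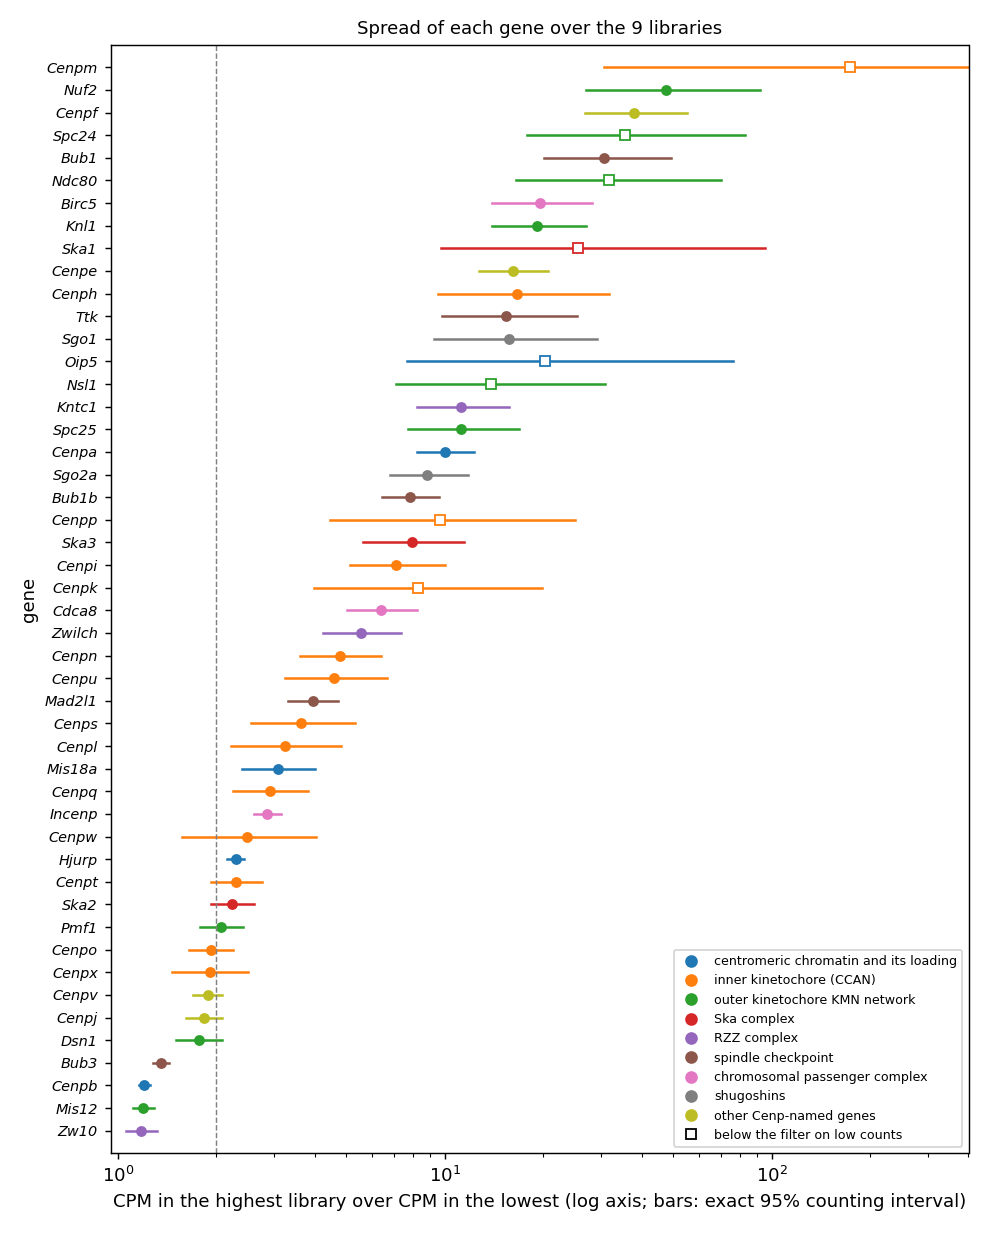
CPM in the highest library over CPM in the lowest (horizontal axis, logarithmic) for each of the 48 genes (vertical axis, in order of log2 range), with exact 95% intervals that cover counting error only; open squares mark the 8 genes below the filter, the dashed line 2-fold, and the bar of Cenpm runs past the axis to 6877. The ratios run from 173 for Cenpm and 47.5 for Nuf2 to 1.18 for Zw10. The intervals do not allow for picking the highest and lowest library.

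At the centromeric chromatin, Cenpa (chromosome 5 at 30666777 to 30674830, plus strand), the histone variant that marks the centromere, stood at 3.97, 10.9 and 3.14 CPM in libraries 1 to 3, then 4.42, 18.8 and 4.14 CPM in libraries 4 to 6 and 9.17, 31.5 and 8.37 CPM in libraries 7 to 9. Its extremes differed 10.02-fold (95% interval 8.24 to 12.3), and its range was 3.30 on the log2 scale and 2.56 without library 8. Of the genes of its loading machinery, Hjurp and Mis18a ranged less and Oip5 more. Hjurp (chromosome 1 at 88262471 to 88277633, minus strand), the CENP-A chaperone, had 122 CPM in library 8, a median of 63.2 CPM and 53.2 CPM in library 1 (2.29-fold, 95% interval 2.16 to 2.43). Mis18a, a licensing factor of CENP-A loading, had 8.38 CPM in library 8, a median of 4.35 CPM and 2.72 CPM in library 1 (3.08-fold, 95% interval 2.40 to 4.01). Oip5, the gene of MIS18 beta, had 2.49 CPM in library 8 against 0.123 CPM in library 6 (20.3-fold, 95% interval 7.66 to 76.1) on 4 counts in library 6, and its range was 3.78 on the log2 scale and 3.02 without library 6. Oip5 overlaps Nusap1, a spindle protein gene on the other strand, over 172 bases (9.67% of its exon length), and Nusap1 had 14.9 CPM in library 8 and 1.13 in library 3. Cenpb, which binds a DNA motif in centromeric satellite repeats, was nearly level, at 259 CPM in library 2 against 215 CPM in library 9 (1.204-fold, 95% interval 1.16 to 1.25).

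Among the 14 genes of the constitutive centromere-associated network, the inner layer that bridges CENP-A nucleosomes and the outer kinetochore, 11 passed the filter and 9 were variable, and 12 of the 14 were highest in library 8. All 14 were higher in the middle library of each run of 3. Cenpm had 179 counts in library 8 and 1 count in library 3, that is 4.90 and 0.0283 CPM, a ratio of 173 with a 95% interval of 30.7 to 6877. Its range was 5.77 on the log2 scale and 4.38 without library 3. The range is smaller than that ratio because log2 CPM includes the prior count of 2. Cenph, which like Cenpm, Cenpi and Cenpk belongs to one subcomplex of the network, had 6.13 CPM in library 8 against 0.368 CPM in library 3 (16.7-fold, 95% interval 9.55 to 31.8), a range of 3.85 on the log2 scale and 2.65 without library 3. Cenpi had 10.1 CPM in library 8 against 1.43 CPM in library 1 (7.09-fold, 95% interval 5.13 to 10.05), a range of 2.77 on the log2 scale and 2.12 without library 8. Cenpn, which recognises the CENP-A nucleosome, had 8.92 CPM in library 8 against 1.87 CPM in library 6 (4.77-fold, 95% interval 3.62 to 6.38), a range of 2.22 on the log2 scale and 1.53 without library 8. Cenpk had 2.03 CPM in library 8 against 0.245 CPM in library 6 (8.25-fold, 95% interval 3.98 to 19.8), on 8 counts in library 6. Cenpp had 1.92 CPM in library 8 against 0.198 CPM in library 3 (9.67-fold, 95% interval 4.46 to 24.9), on 7 counts in library 3. Cenpp shares 12.3% of its exon length with Ippk on the other strand, which had 12.3 CPM in library 8 and 13.1 in library 3. Cenpu and Cenpl were highest in library 5 instead of 8, at 5.34 and 3.78 CPM, against 5.20 and 3.09 CPM in library 8. Cenpu shares 26.7% of its exon length with Primpol on the other strand, which had 13.03 CPM in library 8 and 13.1 in library 3.

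The histone-fold subunits of this layer ranged 1.91-fold to 3.65-fold. Cenpt, which reaches out to the Ndc80 complex, ranged 2.297-fold (95% interval 1.93 to 2.75) and was not variable without library 8 (0.90 on the log2 scale). Its partner Cenpw had 1.72 CPM in library 8 against 0.692 CPM in library 7 (2.49-fold, 95% interval 1.57 to 4.04). Cenps ranged 3.65-fold (95% interval 2.55 to 5.33), whereas Cenpx, which also acts with CENP-S in the Fanconi pathway, ranged 1.91-fold and passed 2-fold only with libraries scaled by their totals (1.01 on the log2 scale). Cenpq, with 6.79 CPM in library 8 against 2.33 CPM in library 6, ranged 2.91-fold. Cenpo, the other member of the network that was tested and not variable, ranged 1.92-fold and passed 2-fold as well with totals alone (1.01). It shares 19.0% of its exon length with Adcy3 on the other strand, which had 50.6 CPM in library 8 and 29.03 in library 3, and 14 of the 48 genes overlap exons of another gene in all.

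The 4 remaining genes carry the Cenp name and were not placed in any of the groups above. Cenpf (chromosome 1 at 189640606 to 189688086, minus strand), a large protein of the nuclear matrix and outer kinetochore, stood at 1.15, 19.5 and 1.19 CPM in libraries 1 to 3, then 3.56, 32.4 and 2.64 CPM in libraries 4 to 6 and 8.68, 43.5 and 8.53 CPM in libraries 7 to 9. Its extremes differed 37.8-fold (95% interval 26.8 to 55.1). Cenpe, the kinesin that moves chromosomes to the metaphase plate, stood at 3.48, 15.01 and 2.09 CPM in libraries 1 to 3, then 4.02, 24.6 and 3.16 CPM in libraries 4 to 6 and 9.92, 33.8 and 8.31 CPM in libraries 7 to 9, 16.2-fold (95% interval 12.8 to 20.7) between extremes. Cenpj, which controls centriole length, was not variable, with 23.3 CPM in library 8, a median of 14.3 CPM and 12.7 CPM in library 1 (1.84-fold, 95% interval 1.62 to 2.08). Cenpv ran the other way, at 26.6, 20.4 and 26.9 CPM in libraries 1 to 3, then 28.7, 19.3 and 29.9 CPM in libraries 4 to 6 and 28.7, 15.9 and 24.01 CPM in libraries 7 to 9. It was lowest in libraries 8, 5 and 2, over 1.88-fold (95% interval 1.70 to 2.09), and was not variable.

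Levels of different genes can be set side by side only per length, here as CPM per kilobase of annotated exon. In these units the outer kinetochore held subunits of one complex at unlike levels. Mis12 had 15.4 CPM per kilobase in library 8 and 13.7 in library 3, Dsn1 3.87 and 2.86, Pmf1 3.73 and 1.80, and Nsl1 0.774 and 0.0854. The 4 subunits of the Ndc80 complex were closer to one another in library 8, at 2.54 (Nuf2), 1.24 (Ndc80), 3.38 (Spc24) and 2.99 (Spc25) CPM per kilobase, and in library 3 they stood at 0.0536, 0.0392, 0.187 and 0.266. Annotated exons include those of minor isoforms, so the absolute values per kilobase depend on the annotation, while a ratio of 2 genes keeps its relative change between libraries.

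Ratios within a library do not depend on how libraries are scaled. The pairs given here were chosen after their values were seen. Per kilobase, the ratio of Zw10 to Kntc1 was 30.8 in library 1, against 2.72 in library 8, and that of Bub3 to Bub1b 12.4 in library 1, against 1.44 in library 8. The ratio of Mis12 to Nsl1 was 254 in library 4, against 19.8 in library 8, with few counts of Nsl1. For Incenp to Birc5 it was 12.5 in library 1, against 1.83 in library 8. For Hjurp to Cenpa it was 12.1 in library 3, against 2.72 in library 8. In these 5 pairs the ratio was highest in library 1, 3 or 4 and lowest in library 8. Of other pairs computed, Bub3 to Bub1, Zwilch to Kntc1, Ska2 to Ska1 and Ska2 to Ska3 were also lowest in library 8. Dsn1 to Pmf1 and Mad2l1 to Bub1b were lowest in library 7, and Cdca8 to Birc5 in library 5. Cenpt to Cenpw was lowest in library 1 and Cenpx to Cenps in library 4. Within the Ndc80 rod, the ratio of Nuf2 to Ndc80 was 2.04 in library 8, against 0.858 in library 6. That of Spc24 to Spc25 was 1.13 in library 8, against 0.215 in library 6, and that of Spc25 to Ndc80 was 6.79 in library 3, against 1.37 in library 9. These 3 ratios differed 2.38-fold, 5.25-fold and 4.95-fold between extremes. Few counts lay behind the values of 0.215 (8 of Spc24 in library 6) and 6.79 (9 of Ndc80 in library 3).

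**Figure D4:**
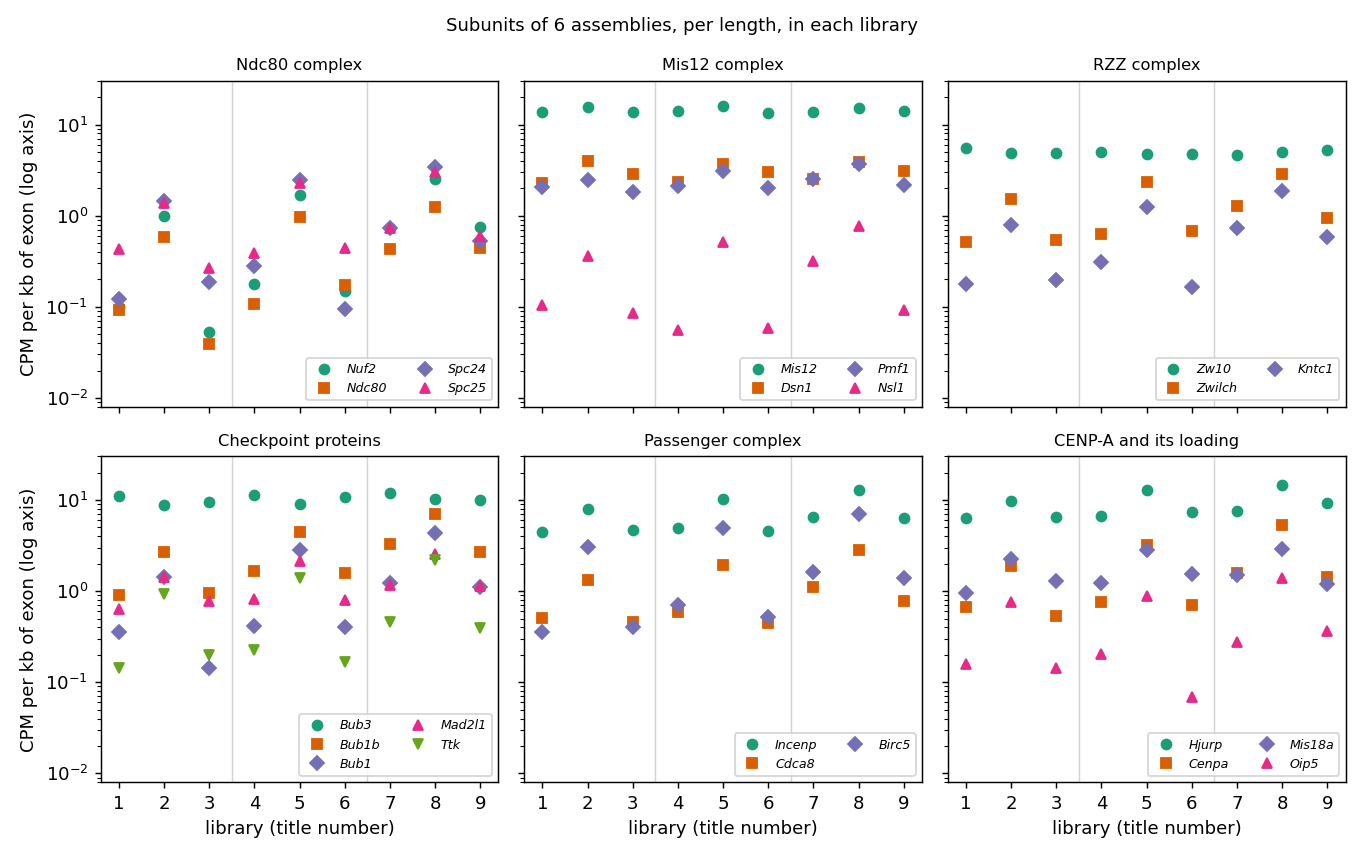
CPM per kilobase of exon (vertical axis, logarithmic) of the subunits of 6 assemblies in each library (horizontal axis, by title number; grey lines separate runs of 3). Mis12, Zw10 and Bub3 keep 1 level over the 9 libraries, with at most 1.35-fold between extremes, while their partners Nsl1, Kntc1 and Bub1b peak in library 8.

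Of the 16 partner genes outside the set, all passed the filter and 11 were variable, against 28.0% of all genes tested. In 13 of them the middle library of each run of 3 was the highest, against 28.6%. The widest was Plk1, a mitotic kinase that acts at kinetochores, with 29.8 CPM in library 8 against 1.27 CPM in library 3 (range 4.48 on the log2 scale), and the narrowest Cenpc1, the gene of the inner kinetochore's CENP-C, with 27.98 CPM in library 8 against 23.8 CPM in library 6 (0.23). Zwint, a kinetochore protein gene named here after its values were seen, had 296 CPM in library 3 against 165 CPM in library 8. It was lower in the middle library of each run, as Cenpv was. The same held for Mad1l1, also named after its values were seen, with 45.4 CPM in library 7 against 31.8 CPM in library 2. Of all genes tested, 29.5% had this order. Among 16 subunits and ubiquitin-conjugating enzymes of the anaphase-promoting complex, the target of the checkpoint, 1 was variable: Ube2c, with 21.6 CPM in library 8 against 0.764 CPM in library 3 (4.71). The narrowest of them was Anapc10 (0.23), and their median range was 0.40. Of 9 cohesin genes none was variable by the same chi-square test and 2-fold rule. All 9 had an adjusted p under 0.05 in that test, as had 94.1% of all genes tested. The ranges of the cohesin genes ran from 0.61 in Wapl, the cohesin release factor, to 0.33 in Stag1, with a median of 0.45.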

How the data were processed

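The authors deposited 1 table of RSEM expected counts per gene, rounded to whole numbers and not normalised. STAR 2.7.8a, RSEM 1.3.3, cutadapt 2.3, FastQC 0.11.8 and the build GRCm38 come from the submitters' processing notes. The annotation release is, like the strand setting, not given in the sources used here. Shared reads of similar genes were divided by RSEM's model, so such genes are less certain.

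Each of the 9 columns matched 1 sample title, with 0 left over. Counts were scaled with TMM factors (edgeR 4.0.16, R 4.3.3), and log2 CPM used a prior count of 2. Fold ratios with intervals are of CPM without a prior count, so at low counts they exceed the ranges on the log2 scale. edgeR's filter without groups (10 counts at the median library size, 15 in total) kept 12813 genes. Without groups no quasi-likelihood coefficient could be tested, so each gene's counts were tested for dispersion beyond counting noise by chi-square (scipy 1.17.1) with Benjamini-Hochberg adjustment. The test does not separate biology from sorting or library preparation. Intervals are exact 95% conditional binomial intervals of 2 counts and cover counting error only. They do not allow for picking the highest and lowest of 9 libraries, so they can exclude 1 for a gene that does not vary. No 2 libraries agreed within sampling noise (mean pairwise chi-square per gene at least 16.7).

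The genes, the lists and the runs of title numbers were chosen with earlier results of these data known. Named genes are the widest and narrowest of each role, a fixed set of 15 central genes, and those below the filter; other members were named after their values were seen. Coordinates and exon lengths come from GENCODE M21 (GRCm38), promoters from RefSeq. Alternatives were other scalings, filters, prior counts, a 1.5-fold threshold and leaving out each library.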

Additional observations from a re-analysis of the deposited data

How the results depend on the processing

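The count of variable genes was 31 of 40 with RLE size factors and with a prior count of 0.5, 33 of 40 with totals alone, 36 of 45 with a mean of at least 1 CPM, 39 of 48 without a filter, 36 of 40 at 1.5-fold, and 29 to 32 with 1 library left out. The counts higher in the middle library of each run, and rising over the runs, stayed within 1.5 times of 36 and 16 under every alternative run. Leaving out a library dropped the comparisons with it, so these counts could hardly fall there. The band of 1.5 times around 36 also reaches past the 40 genes tested, so it could not be left upward among them. The median range was 2.74 on the log2 scale without a filter, since the filter removes genes near 0 in some libraries, against 2.06. The range of the list score was 2.29 with totals alone, and from 1.82 (without library 8) to 2.33 (without library 6) with 1 library left out. The 32 named genes under the 15 alternatives gave 480 values. The call of variable or not was unchanged in 461 and gained in 19, in Cenpj, Cenpx and genes below the filter. The unchanged calls include those where the 8 genes below the filter stayed untested, and a range could move while its call stayed. Outside these 32 genes, Pmf1 lost its call without library 3 and without library 8, and Cenpt without library 8. Cenpo, Cenpv and Dsn1 gained one at 1.5-fold, and Cenpo with totals alone as well. The ranges of 12 of the 48 genes moved by over 1.5-fold when 1 library was left out (library 3 for 6 genes, library 8 for 5, library 6 for 1). No scaling moved a library by more than 0.053 on the log2 scale. No paired analysis was possible because no library has a group. Depth limits the genes with under 10 counts in their lowest library, such as Cenpm, Oip5, Ska1 and Ndc80.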

Other observations

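Ordered by the list score of the 48 genes, the libraries ran 3 (-0.72), 6 (-0.65), 1 (-0.55), 4 (-0.43), 9 (0), 7 (0.13), 2 (0.52), 5 (1.09) and 8 (1.52). The widest gap between neighbours, 0.57, lay between libraries 2 and 5. The gaps between libraries 4 and 9 and between libraries 5 and 8 were both 0.43, and that between libraries 7 and 2 was 0.39.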
